A study of Mus musculus with 16 samples.

Results

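The 10 genes described here encode NF-kB subunits, IkB proteins and the enzyme A20. The subunit genes are Nfkb1, Nfkb2, Rel, Rela and Relb. Nfkbia, Nfkbie, Nfkbiz and Bcl3 encode the IkB proteins, and Tnfaip3 encodes A20. The members are 10 of 21938 protein-coding genes, listed by name, without a rule on any measured value. Open chromatin was read by ATAC-seq, in which a transposase cuts accessible DNA, in stem and progenitor cells of the blood (HSPCs) that were sorted out of the marrow of mice. There were 4 libraries of each of 4 genotypes, 16 in all. WT mice carried Ep300 fl/fl without Cre. P300KO mice carried Mx1-Cre;Ep300 fl/fl. TET2KO mice were Ep300 fl/fl;Tet2-/-, and P300KO_TET2KO mice were Mx1-Cre;Ep300 fl/fl;Tet2-/-. All 4 genotypes thus shared the floxed Ep300 alleles, and all received poly(I:C), an interferon inducer that also turns on Mx1-Cre in interferon-responsive cells. Each library was a pool made from 2 mice of its genotype, so the spread between libraries is between pools, and both sexes were used. Peaks of the 16 lists that shared at least 1 bp were merged into 296215 regions, and 224 of them lay in the body of a member or within 20 kb of either end.

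NF-kB proteins work as dimers. In resting cells IkB proteins keep most dimers in the cytoplasm, and a kinase complex downstream of TNF, interleukin-1 and Toll-like receptors marks IkB for destruction, which releases the dimers to the nucleus. Several of the genes that NF-kB then turns on encode its own inhibitors, IkBα and A20 above all, so the response limits itself, and in blood progenitors the pathway is known for inflammatory and emergency myeloid programmes. The p300 protein is an acetyltransferase that serves NF-kB as a coactivator, and TET2 oxidises methylated cytosine.

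The DNA of these regions is shown first because the family is known to be its own target. A loose form of the kB string, GGGNNTTNCC on either strand, was searched in 201 bases around the summit of every region that had a peak in all 16 libraries. It was present in 10 of the 47 such windows of the members (21.3%), against 1542 of 39310 windows in all (3.92%). Of the 47, 16 lay at a member's own transcription start and 7 of these held the string. None was found in the 7 windows at a neighbour's start (0 of 7), and 3 of the 21 windows over 3 kb from any coding start held it. Base composition was close where the members were set beside windows of the same kind: within 1 kb of a coding start the median GC content was 65.7% for members and 65.2% for all windows, and the string occurred in 30.4% and 4.11% of them. The matches fell at 7 members, and each is printed with 10 bases on either side, on the strand that holds the match and with the match in capitals. They are given because they are the positions where the string and an open region common to all libraries coincide.
Nfkb1 promoter, chr3:135691497-135691526, minus strand: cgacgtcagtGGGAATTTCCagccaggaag
Rel promoter, chr11:23771042-23771071, plus strand: gggaggggggGGGATTTCCCgctgcttacg
Rela, 11.4 kb downstream of its start, chr19:5648936-5648965, minus strand: tctcagcataGGGGTTTCCCcaccgcttag
Nfkbia promoter region, in the gene, chr12:55491947-55491976, plus strand: cagccgcccaGGGACTTTCCgtgccccacc
Nfkbiz upstream start, chr16:55838850-55838879, minus strand: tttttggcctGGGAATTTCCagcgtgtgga
Nfkbiz, 14.2 kb upstream, chr16:55853118-55853147, plus strand: agtgtattttGGGGTTTCCCatgtactacg
Nfkbiz, 14.2 kb upstream, chr16:55853137-55853166, plus strand: catgtactacGGGTATTTCCtccatagggg
Tnfaip3 promoter, chr10:19015403-19015432, plus strand: ttgccaacagGGGGATTTCCgatggaaatt
Bcl3, intron, 5.2 kb downstream of its start, chr7:19817620-19817649, plus strand: tgtgcgggaaGGGATTTCCCcgaggcggca
Bcl3 start, chr7:19822734-19822763, plus strand: gccgggcagcGGGACTTCCCctgccgccga
Bcl3, 1.6 kb upstream, chr7:19824346-19824375, plus strand: gcagcagctcGGGGCTTTCCcggacatccc
A further match in the last of these windows overlapped the one shown. Coordinates are of mm10, and a match is a description of letters, not of a bound protein.

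The Nfkbia promoter, which drives the inhibitor IkBα, also had the string upstream of its summit window. RefSeq promoter sequences of GRCm38.p6, 300 bases that end shortly after the start, gave 10 promoters for 7 of the members, and 7 of the 10 held the string, against 4.79% of 32851 promoters. Those 7 belonged to 5 of the 7 members: Bcl3, Nfkb2, Nfkbia, Rel and Tnfaip3. Some promoters of Nfkb2 overlap, so a match there is counted more than once. In the 250 bases before the start alone, 5 of the 10 held it, and the Bcl3 promoter did not. The 250 bases before the Nfkbia start are shown on the minus strand, 5′ to 3′, with the match in capitals.
Nfkbia, chr12:55492648-55492897: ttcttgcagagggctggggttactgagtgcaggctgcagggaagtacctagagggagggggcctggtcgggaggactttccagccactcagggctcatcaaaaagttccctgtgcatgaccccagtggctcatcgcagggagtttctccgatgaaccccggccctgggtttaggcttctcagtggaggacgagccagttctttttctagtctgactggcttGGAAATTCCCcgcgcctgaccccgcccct
Here the capitals read the string on the opposite strand, 29 bases before the start. Of 3 other strings searched on both strands, the AP-1 string (TGA and TCA parted by any base) was in 5 of the 47 windows, beside 7.14% of all windows. A PU.1 string, GAGGAAGT, was in 8 (7.47% of all windows). A GATA string, AGATAAG, was in 3 (3.07%). For each of these 3 strings the share among the 47 windows was thus also above that of all windows, on small counts. Strings were searched separately and may overlap one another.

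The peak lists carried no read depth. A library was therefore described by its list length, which was 86039 to 110055 peaks in the 8 libraries with replicate numbers 1 and 2, whose labels name a merged peak file, and 130610 to 137335 in the 8 libraries with numbers 3 and 4. These 2 deposit sets hold the same number of libraries of every genotype. WT replicate 1 stood apart, with 44349 peaks at a −log10 q of at least 2 against 61343 to 92010 in the other libraries of its set. A peak's level is given as its percentile by −log10 p within its own list, so that 100 is the strongest peak of that library. Peaks at the promoters of Ep300 and Tet2 were present in 16 of 16 libraries, at percentiles 89.5 to 96.3 and 89.0 to 93.7, so the promoter peaks do not check the genotype labels. Promoters of 9 of 10 HSPC marker genes had a peak in every library, with Ly6a in 15, and those of 0 of 3 T cell, 0 of 3 B cell and 0 of 3 non-blood markers did. Peaks in 16 libraries were also seen at Mpo among 3 neutrophil markers, at Adgre1 among 2 macrophage markers and at the erythroid gene Hbb-bt.

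All 10 members had a promoter peak in 16 of 16 libraries. Across all coding genes, 17045 had a promoter region in at least 1 library and 13528 in all 16. The median member promoter lay at percentile 93.4 and the median coding promoter at 82.8, genes without a peak counted as 0. The members' windows held 47 regions common to all libraries, 72 seen in 1 library, 57 seen in the first deposit set alone and 48 in the second set alone. By place, 173 of the 224 regions were distal, meaning over 3 kb from the start of any coding transcript, 10 were the members' promoters, 10 lay at other starts of a member, 13 at the start of a neighbouring gene and 18 at 1 to 3 kb from a start.

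**Figure D1:**
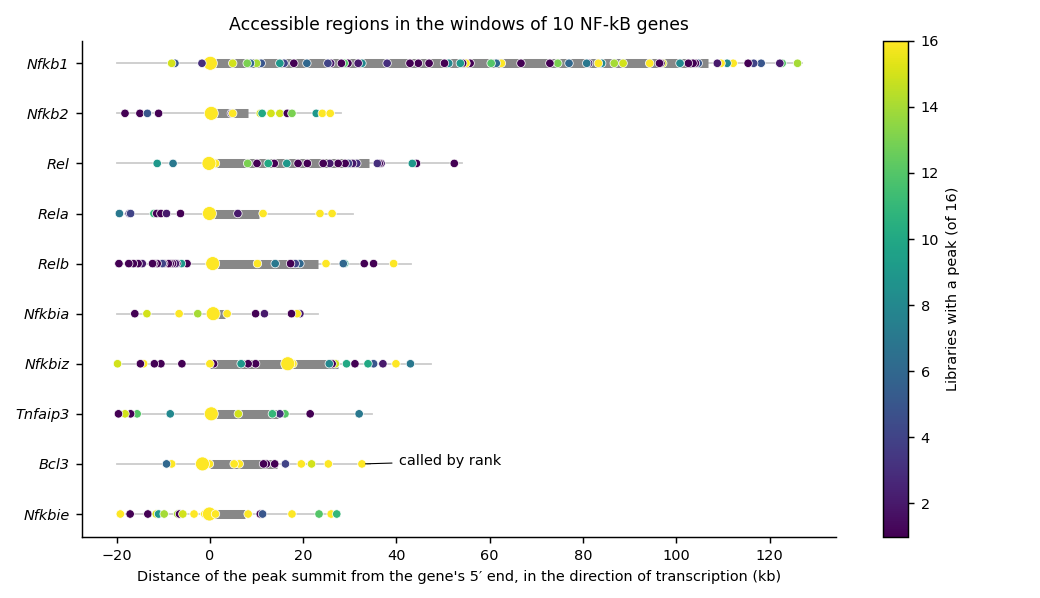
Regions of open chromatin in the window of each of the 10 members, with distance from the gene's start in kb on the x axis and 1 row per gene; the grey bar is the gene body, each dot is a merged region coloured by the number of libraries (of 16) with a peak, and larger dots are promoter regions. Nfkb1 holds 62 of the 224 regions, and every promoter dot has the colour of 16 libraries.

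The subunits differed in how strong their promoters were and in how much of the gene was open. Relb, which pairs with p52 in the noncanonical pathway, had the strongest promoter of the 10, with a mean percentile of 99.3 over 16 libraries (range 98.1 to 99.9), above those of 97.1% of coding genes. Nfkb2, the gene of p100 and p52, followed among subunits at 96.5 (95.0 to 97.9). The promoter of Rel, which encodes c-Rel, averaged 94.0 (90.2 to 96.3). That of Rela, the gene of p65, averaged 92.9 (90.6 to 94.6). Nfkb1, the gene of p105 and p50, had the weakest of the 10, at 87.8 (73.2 to 92.6), above 55.6% of coding genes. The ranges of Relb and Nfkb2 did not overlap, while those of Nfkb2 and Rel, Rel and Rela, and Rela and Nfkb1 did.

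Among the genes of A20 and the IkB proteins the order ran from the ubiquitin-editing enzyme A20 down to IkBε. The Tnfaip3 promoter averaged 97.5 (96.3 to 98.8) and that of Nfkbiz, the gene of the nuclear protein IkBζ, 97.2 (95.2 to 98.1). The Nfkbiz value belongs to an internal start 16.7 kb into the gene, and the region at its upstream start averaged 90.5. Bcl3, a nuclear IkB that binds p50 and p52 dimers, had its strongest start region 606 bp from a coding start, at 91.8 (84.6 to 95.8), while the region on the gene's 5′ end averaged 83.9. The promoters of Nfkbia and Nfkbie, which encode the cytoplasmic inhibitors IkBα and IkBε, averaged 91.5 (89.2 to 92.9) and 90.0 (86.0 to 93.1). Neighbours in this order overlapped in range in every case. These ranges do not compare the promoters within each library, so the overlap alone does not settle the order between them.

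**Figure D2:**
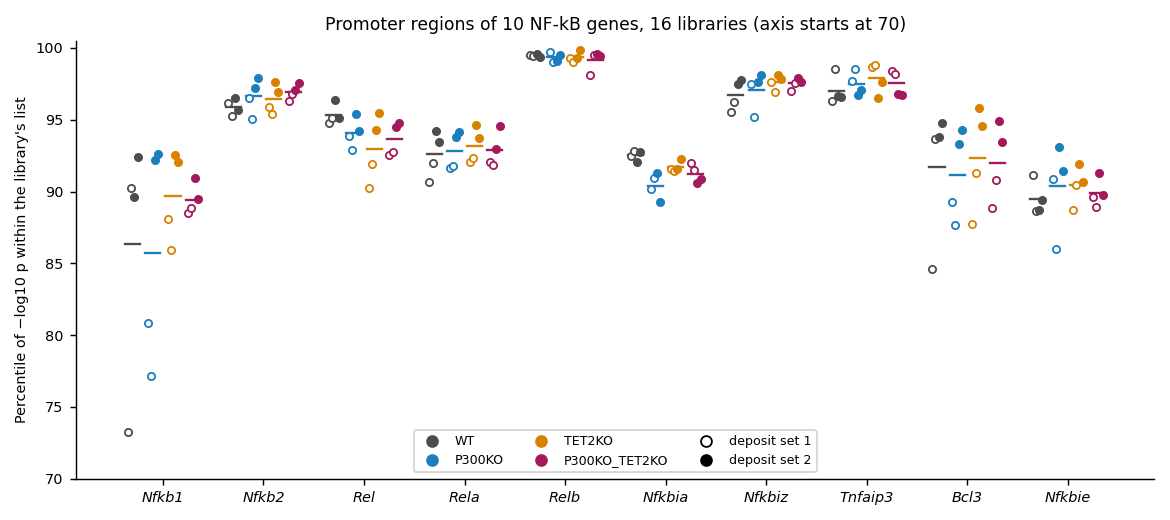
Percentile of the promoter peak by −log10 p within its own list (y axis) for the 10 members, by genotype; each point is 1 library, open for the first deposit set and filled for the second, and short bars are genotype means of 4 libraries. Relb sits between 98.1 and 99.9 in all genotypes, and the lowest point is Nfkb1 in WT replicate 1 at 73.2.

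Away from promoters the members differed in how many common regions they had. Of the 21 distal regions seen in all libraries, Bcl3 had the 2 strongest, 32.6 kb downstream of its start (95.2) and 8.2 kb upstream (95.2). Both were stronger than the Bcl3 promoter itself at 91.8. A region 11.4 kb downstream of the Rela start, just beyond the gene's end, averaged 94.4, also above the Rela promoter at 92.9, and holds 1 of the strings shown above. Relb had regions at 86.9 (39.4 kb downstream, within Clasrp) and 85.8 (in an intron 10.2 kb downstream). Nfkbia had a region 6.6 kb upstream at 85.2 and 1 at the gene's far end at 75.5. Nfkb1 had regions 109.6 kb downstream, past its end, at 83.2, and in an intron at 94.3 kb, at 79.7. Nfkb2 had 1 common distal region, in an exon, at 81.5.

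Rel and Tnfaip3 had no distal region in all 16 libraries. Their strongest were an intronic Rel region 8.1 kb downstream in 13 libraries, at a mean of 53.3 over the libraries with a peak, and a region 18.2 kb upstream of Tnfaip3 in 15 libraries, at 64.1. The gene body and flanks of Nfkbie were the most densely open of the 10, with 29.9 regions per 100 kb, above 99.9% of the 17218 genes with a mean of at least 2 regions. That window takes in 5 promoter regions of neighbouring genes. The median over those genes was 9.81 per 100 kb, and Rel, at 9.70, was the only member below it. Nfkb2 (19.9), Nfkb1 (18.3) and Bcl3 (18.0) each exceeded at least 91.0% of genes.

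Genotypes were compared at the common regions by a limma fit of the percentile over all 39310 of them, with genotype and deposit set as terms and p-values adjusted over all regions. The question was whether loss of p300 changed these regions, with and without Tet2. All mice without p300 carried Mx1-Cre and no mice with p300 did. In every p300 comparison below, loss of p300 and presence of Cre therefore cannot be told apart. In P300KO_TET2KO against TET2KO, 0 of the 47 member regions passed an adjusted p of 0.05, where 0.0687% of all common regions did. In P300KO against WT 0 of 47 passed (0.0102% of all regions). In TET2KO against WT 0 of 47 did (0.0% of all regions) and in P300KO_TET2KO against P300KO 0 of 47 did (0.104%). The mean p300 effect, the average of both p300 contrasts, called 1 of 47 (0.661% of all regions, 260 regions of which 217 were lower without p300). That background count was not stable, at 91 regions without TET2KO replicate 3 and 564 without WT replicate 1, and at 0 in the first deposit set alone and 2584 in the second. The mean Tet2 effect called 0 (0.247%) and the interaction of both losses called 0 (0.0%). These contrasts share libraries and are not independent of each other.

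At an unadjusted p under 0.05, the member regions were 2 of 47 in P300KO_TET2KO against TET2KO (4.26%, against 5.57% of all regions) and 9 in P300KO against WT (19.15% against 13.15%). There were 3 in TET2KO against WT (6.38% against 8.75%) and 2 in P300KO_TET2KO against P300KO (4.26% against 7.04%). For the mean p300 effect there were 10 (21.28% against 12.83%), for the mean Tet2 effect 5 (10.64% against 10.73%) and for the interaction 1 (2.13% against 4.59%). The median difference of the 47 regions was 0.45 percentile points in P300KO_TET2KO against TET2KO, where that of all regions was 0.29. In P300KO against WT the members' median was 0.42 and that of all regions was -0.29.

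**Figure D3:**
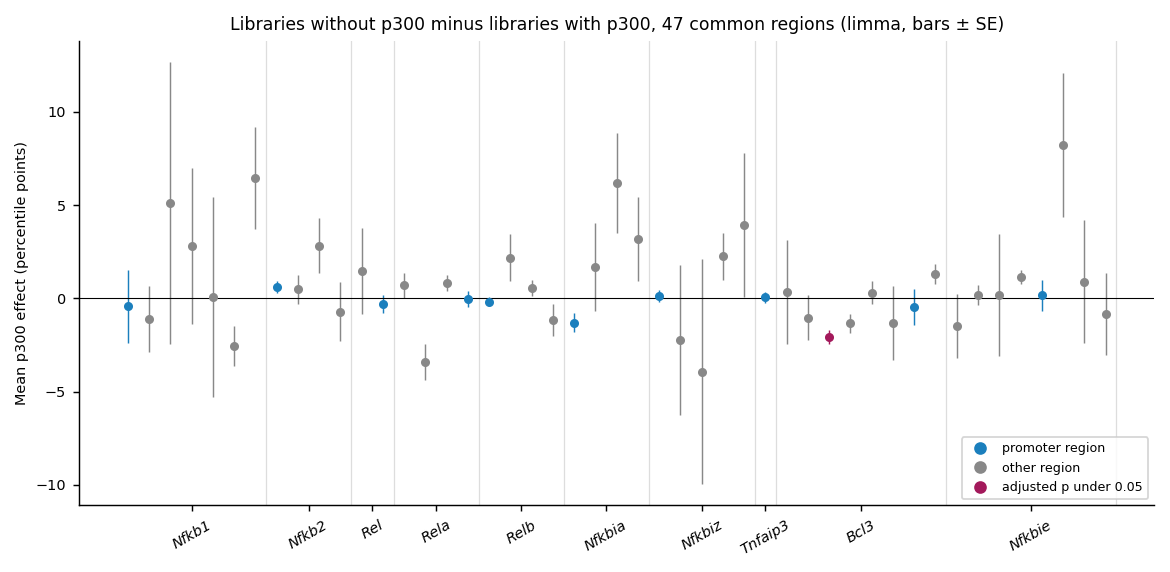
Mean p300 effect (y axis, percentile points, genotypes without p300 minus genotypes with it) for the 47 common regions, grouped by member along the x axis, each with its standard error from the limma fit over 16 libraries. The region 32.6 kb downstream of the Bcl3 start, at -2.07, is the 1 region called.

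The region that passed lies 32.6 kb downstream of the Bcl3 start, at chr7:19789724-19790386, 663 bp long, inside the neighbouring gene Cblc, which encodes an E3 ubiquitin ligase of the Cbl family. It is 6407 bp from the Cblc start and 19277 bp from the nearest coding start of Bcl3, and which gene it serves is not known from these lists. The 201 bases around its summit are shown on the plus strand because this is the member region whose rank differed by genotype.
Bcl3 +32.6 kb, chr7:19790044-19790244: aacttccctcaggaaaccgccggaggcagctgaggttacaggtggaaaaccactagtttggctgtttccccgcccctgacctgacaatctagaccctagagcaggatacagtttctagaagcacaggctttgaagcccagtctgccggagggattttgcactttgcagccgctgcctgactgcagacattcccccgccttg
None of the kB, AP-1, PU.1 and GATA strings named above was in these letters.

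The percentile of this Bcl3 region was 95.6, 95.2, 98.0 and 96.9 in WT replicates 1 to 4 and 92.9, 93.2, 95.6 and 96.3 in P300KO. It was 95.9, 95.6, 96.1 and 96.5 in TET2KO and 93.0, 92.0, 95.2 and 95.1 in P300KO_TET2KO. In the first deposit set the 4 libraries without p300 all lay below the 4 with p300, and in the second set 1 P300KO library overlapped the range of those with p300. The mean was 96.4 ± 1.29 for WT, 94.5 ± 1.74 for P300KO, 96.0 ± 0.381 for TET2KO and 93.8 ± 1.55 for P300KO_TET2KO (SD, n = 4). The region was lower without p300 by a mean difference of -2.07 percentile points (SE 0.374, limma adjusted p = 0.0151). The libraries without p300 had the lower mean in each deposit set at either Tet2 genotype.

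No single contrast of these 4 genotypes passed the adjusted threshold at this region. It was -2.22 (SE 0.529) in P300KO_TET2KO against TET2KO, with a limma adjusted p of 0.268, and -1.92 in P300KO against WT, with an adjusted p of 0.168. The interaction was -0.30 (adjusted p = 0.967), and TET2KO against WT was -0.38 (adjusted p = 0.822). The call was lost without the deposit set term (adjusted p = 0.651), in the first set alone (0.739), when peaks were ranked by fold enrichment (0.108) and when peaks under a −log10 q of 2 were dropped (0.530), always with a lower level without p300. Without WT replicate 1 the difference was -2.04 (adjusted p = 0.0136).

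The 7 other common regions around Bcl3 gave values of both signs. The mean p300 effect was -1.33 (SE 0.518) at the intronic region 5.2 kb downstream that holds a kB string, and +1.31 (SE 0.542) at the region 8.2 kb upstream, with limma adjusted p-values of 0.275 and 0.314. It was -1.05 at the Cblc promoter (adjusted p = 0.751), 0.35 at 19.6 kb and 0.30 at 6.3 kb downstream. At the strongest start region of Bcl3 it was -0.45 (adjusted p = 0.878), and at the gene's 5′ end -1.34 (SE 1.98, adjusted p = 0.813). Of these 7 regions 4 were lower in value without p300 and 3 higher, and 0 passed.

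**Figure D4:**
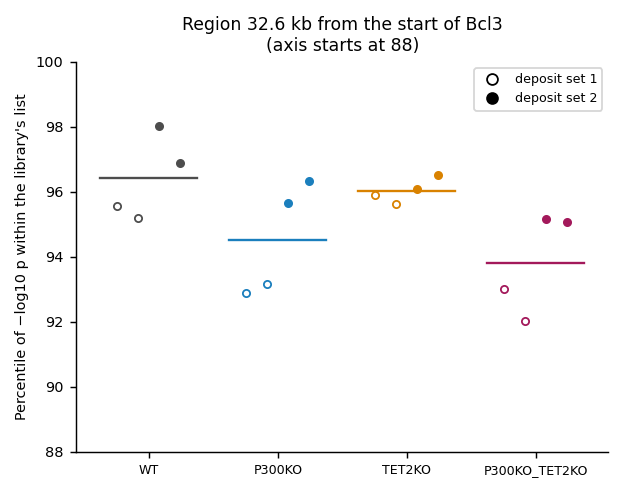
Percentile by −log10 p within its own list (y axis) of the region 32.6 kb downstream of the Bcl3 start in the 16 libraries, by genotype; open points are the first deposit set, filled points the second, and short bars are means of 4 libraries. Libraries without p300 reach from 92.0 to 96.3 and libraries with p300 from 95.2 to 98.0, and the separation is complete within the first set.

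None of the promoters of the 10 members passed in any contrast. In P300KO_TET2KO against TET2KO the 10 promoter differences ran from -0.54 to 0.68 percentile points, with 2 above 0. The 2 that were above 0 belonged to Rel (0.68, SE 0.676) and Nfkb2 (0.45, SE 0.460). The Relb promoter was at 99.3, 99.0, 99.3 and 99.9 in TET2KO and at 98.1, 99.5, 99.6 and 99.4 in P300KO_TET2KO. The Tnfaip3 promoter was at 98.7, 98.8, 96.5 and 97.6 in TET2KO and at 98.4, 98.2, 96.8 and 96.7 in P300KO_TET2KO. At both genes the groups overlapped.

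Ranking peaks by the authors' fold enrichment instead of −log10 p gave larger and negative values at the promoters. All 10 were then lower in P300KO_TET2KO than in TET2KO, from -7.73 points at Nfkbia and -7.28 at Nfkbie to -2.84 at Tnfaip3, and 0 of 10 passed, with the lowest limma adjusted p at 0.0721 for Relb (-6.02) and Nfkbiz (-5.23). Their median was -5.62 points by fold enrichment and -0.27 by −log10 p. The 13998 common regions within 1 kb of a coding start had a median of -2.16 by fold enrichment, with 76.4% of them lower, and of 0.16 by −log10 p, with 41.7% lower.

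Ranked by −log10 p, the Nfkbia promoter had the lowest adjusted p of the 10 promoters in P300KO against WT, and it did not pass. It was at 92.5, 92.9, 92.1 and 92.8 in WT and at 90.2, 90.9, 91.3 and 89.2 in P300KO, and these groups did not overlap. In TET2KO it was at 91.6, 91.5, 91.6 and 92.3, and in P300KO_TET2KO at 92.0, 91.5, 90.6 and 90.9, which overlapped. The difference was -2.13 (SE 0.705) in P300KO against WT, with a limma adjusted p of 0.235, and -0.48 in P300KO_TET2KO against TET2KO, with an adjusted p near 1.0. In P300KO against WT, 13.15% of all common regions had a limma unadjusted p under 0.05. The share of them whose groups do not overlap is not given here. The Rel promoter was at 94.8, 95.1, 96.3 and 95.1 in WT and at 90.2, 91.9, 94.3 and 95.5 in TET2KO. Its difference in TET2KO against WT was -2.37 (SE 0.676, limma adjusted p = 0.525), and the groups overlapped through TET2KO replicate 4.

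Among distal and neighbouring regions, values short of the threshold stood out at Rela and Nfkbie. The region at the start of Sipa1, 23.6 kb downstream of the Rela start, was at 89.7, 88.2, 90.8 and 90.0 in WT and at 84.4, 78.8, 85.3 and 87.1 in P300KO. All 4 P300KO libraries lay below all 4 WT libraries, by a mean of -5.80 (SE 1.37, limma adjusted p = 0.115). In TET2KO it was at 88.2, 91.1, 89.9 and 90.3 and in P300KO_TET2KO at 89.1, 88.8, 88.4 and 89.3, which overlapped. The region at the start of Slc35b2, 8.2 kb downstream of the Nfkbie start, differed by 1.72 points in P300KO against WT, with a limma adjusted p of 0.202, and its groups overlapped. Both belong to the promoters of neighbours and not to the members' own starts. Both were named after their values were seen, and the share of all common regions that separate WT from P300KO is not given here.

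The number of regions in a window differed between the deposit sets. The 10 windows together held 74 to 94 regions per library in the first set and 115 to 128 in the second. For 3 of the 10 members every library of the second set had more regions than every library of the first, against 11.2% of the 17218 genes. These were Nfkb1, with 16 to 25 against 30 to 41 regions, Rel, with 3 to 6 against 8 to 13, and Tnfaip3, with 1 to 6 against 7 to 9. When only the strongest 50000 peaks of each library were kept, 0 of 10 members separated the sets (0.0987% of genes) and Nfkb1 had 8 to 12 regions in every library.

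With deposit set as a term, 0 of 10 members were called by region number in P300KO_TET2KO against TET2KO (0.00581% of genes, a single gene) and 0 for the mean p300 effect (0.00581%). No member was called in the other 5 contrasts, where 0.0% of genes were. At an unadjusted p under 0.05, limma gave 1 of 10 members each for P300KO_TET2KO against TET2KO (7.33% of genes), TET2KO against WT (8.84%) and the mean p300 effect (10.2%). Rela had 4, 4, 7 and 6 regions in TET2KO and 6, 5, 7 and 9 in P300KO_TET2KO, and these overlapped. The means were 5.25 ± 1.5 and 6.75 ± 1.71 (SD, n = 4), a difference of 1.5 (SE 0.648, limma adjusted p = 0.659, exact permutation p = 0.314, where the smallest possible is 0.0286). The exact test regroups libraries across the deposit sets, which the limma fit takes into account. Within each set the Rela difference was 1.5.

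Rel, the gene of c-Rel, had 5, 4, 8 and 8 regions in WT and 6, 4, 13 and 11 in TET2KO. The difference was 2.25 (SE 0.933, limma adjusted p = 0.532, exact permutation p = 0.4), with 0.5 in the first set and 4 in the second. Tnfaip3 had 1, 5, 8 and 8 regions in WT and 6, 6, 8 and 9 in TET2KO, and WT replicate 1 was the lowest of all. That difference was 1.75 (limma adjusted p = 0.574, exact permutation p = 0.457), with 3 in the first set and 0.5 in the second. Nfkb1, the member with the most regions, had 25, 22, 33 and 33 in TET2KO and 19, 23, 32 and 35 in P300KO_TET2KO, which overlapped, and the means of 28.2 and 27.2 differed by -1 (limma adjusted p = 0.957).

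**Figure D5:**
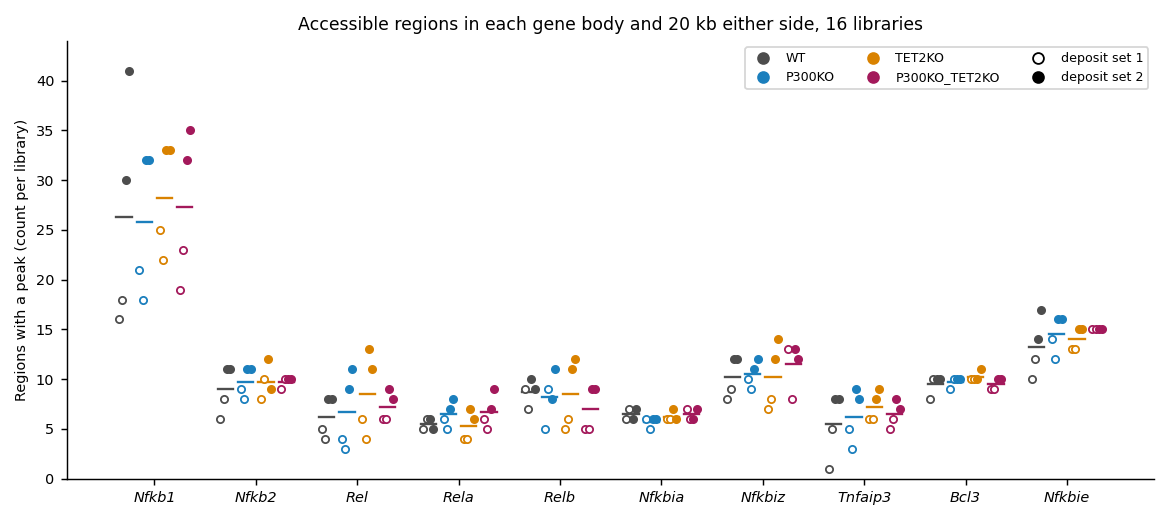
Number of merged regions with a peak in the gene body and 20 kb on either side (y axis) for the 10 members, by genotype, 1 point per library, open for the first deposit set and filled for the second, with bars at the means of 4 libraries. In Nfkb1 the open points lie at 16 to 25 and the filled points at 30 to 41 in all genotypes.

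Presence did not separate any genotypes at the members. In P300KO_TET2KO against TET2KO, 0 of the 165 member regions with a peak in these 8 libraries were all or none, with a peak in every library of 1 genotype and 0 libraries of the other, where 0.114% of all regions were. The count was 0 of 200 in P300KO against WT (0.0276% of all regions), 0 of 195 in TET2KO against WT (0.0255%) and 0 of 174 in P300KO_TET2KO against P300KO (0.146%). When a peak was asked of 3 or more libraries of 1 genotype and no more than 1 of the other, the count was 3 of 165 member regions in P300KO_TET2KO against TET2KO (2.68% of all regions). In those, a region 43.0 kb downstream of the Nfkbiz start was more frequent in P300KO_TET2KO, and regions 84.0 kb downstream of the Nfkb1 start and 9.3 kb upstream of Bcl3 were less frequent. The looser rule gave 3 of 200 regions in P300KO against WT, at Nfkb1 and Nfkbie (1.56% of all regions), all 3 more frequent in P300KO, a direction seen in 0.871% of all regions. It gave 6 of 195 in TET2KO against WT, at Nfkb1, Rel and Nfkbie (1.44%), all 6 more frequent in TET2KO, a direction seen in 0.769% of all regions. It gave 3 of 174 in P300KO_TET2KO against P300KO (2.58%), of which those at Nfkb1 and Nfkbiz 61.4 and 43.0 kb downstream were more frequent in P300KO_TET2KO and 1 at Nfkb1, 7.5 kb upstream, less frequent. A site with no peak is a site not detected in that list, and list lengths differed.

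Nfkb1 lies on the same chromosome as Tet2, 2.04 Mb away (Tet2 at chr3:133463679-133545139), so DNA linked to the Tet2 deletion may differ at Nfkb1, although the study's methods give a C57BL/6 background for its mice. How often the Tet2 line was backcrossed is not given in the sources used here. Of 126 common regions within 5 Mb of Tet2, 19.84% had an unadjusted p under 0.05 for the mean Tet2 effect, where 10.73% of all common regions did, and 2 were called. In TET2KO against WT these shares were 11.11% and 8.75%, and in P300KO_TET2KO against P300KO 12.70% and 7.04%. The p300 comparisons, in which both sides share their Tet2 genotype, also had higher shares near Tet2. These were 16.67% against 12.83% for the mean p300 effect, with 1 called, and 7.94% against 5.57% in P300KO_TET2KO against TET2KO. Of the 7 common regions of Nfkb1, 0 were called and 1 had an unadjusted p under 0.05 in each of the 3 Tet2 comparisons. The Nfkb1 promoter was at 73.2, 90.2, 89.6 and 92.4 in WT and at 88.1, 85.9, 92.5 and 92.1 in TET2KO, a difference of 3.29 (SE 2.74, limma adjusted p = 0.701). That value turned to -0.14 without WT replicate 1, the lowest library, and was 6.04 without WT replicate 2, so it had no stable direction. The intronic region at 94.3 kb was at 78.3, 82.3, 82.2 and 81.7 in WT, at 72.8, 52.1, 85.8 and 76.4 in TET2KO and at 79.9, 77.6, 85.5 and 86.1 in P300KO_TET2KO. Its limma differences were -9.33 in TET2KO against WT and 10.45 in P300KO_TET2KO against TET2KO, with adjusted p-values of 0.557 and 0.735, and TET2KO replicate 2 was the lowest library. Without it the differences were -3.85 and 4.97. At Nfkb1 the loss of Tet2 and DNA linked to it cannot be told apart.

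The rest of the pathway was open at its promoters too and gave no call. Of the genes upstream of NF-kB, 18 of 20 in the list of receptors and adaptors and 9 of 10 in the list of kinases had a promoter peak in all 16 libraries. The first list also holds the receptor-proximal kinases Irak1, Irak4 and Ripk1, and the second also holds Ikbkg, Tab1, Tab2 and Tab3, regulatory partners of the kinases. The adaptor Traf2 and the kinase Irak4 averaged percentiles 99.6 and 99.5 and Map3k14, the kinase NIK of the noncanonical pathway, 99.2. The exceptions were Tnfrsf11a and Tlr3 among receptors and Ikbke among kinases, each with a peak in 15 libraries. All 11 other inhibitors and deubiquitinases had one in all libraries, with Cyld, which removes ubiquitin chains from pathway proteins, at 99.3.

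Known NF-kB target genes were more uneven, with 15 of 20 promoters in all libraries. The anti-apoptotic gene Bcl2l1 and the mitochondrial superoxide dismutase gene Sod2 averaged 99.2 and 98.7, whereas Il1b had a peak in 3 libraries, the chemokine gene Ccl5 in 7 and the adhesion gene Vcam1 in 9. In all 7 contrasts, 0 promoters and 0 genes of these 4 lists passed the adjusted threshold, by rank or by region number. At an unadjusted p under 0.05, limma gave 1 of the 53 promoters of the 4 lists in P300KO_TET2KO against TET2KO (1.89%, beside 5.57% of all common regions), 3 in P300KO against WT (5.66% beside 13.15%) and 4 in TET2KO against WT (7.55% beside 8.75%). There were 5 in P300KO_TET2KO against P300KO (9.43% beside 7.04%), 3 for the mean p300 effect (5.66% beside 12.83%), 8 for the mean Tet2 effect (15.1% beside 10.73%) and 2 for the interaction (3.77% beside 4.59%). The median promoter differences in P300KO_TET2KO against TET2KO were 0.55 percentile points for receptors and adaptors, 0.25 for kinases, -0.16 for other inhibitors and 0.27 for targets, beside 0.29 over all common regions.

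Most markers of mature cells lacked a peak in some libraries and were not tested. Among those tested, the mean p300 effect was -4.81 percentile points at the Mpo promoter, 4.97 at Adgre1 and 7.67 at Hbb-bt, with limma adjusted p-values of 0.50, 0.651 and 0.585. In P300KO against WT the differences were -8.11, 11.99 and 18.08 (adjusted p-values of 0.398, 0.399 and 0.342), and in P300KO_TET2KO against TET2KO -1.51, -2.05 and -2.74, and 0 of these passed. Whether the mix of progenitors plays a part in the Bcl3 result was not tested. In bulk libraries, a change in the share of cells with an open region and a change in openness per cell cannot be told apart.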

How the data were processed

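ATAC-seq libraries were made from sorted, cryopreserved HSPCs, 1 per pool of a pair of mice. Per the study's methods and the submitters' processing notes, the authors trimmed reads with cutadapt 1.9.1, aligned them to mm10 with Bowtie2 2.2.6, removed duplicates, shifted ends for the transposase and called peaks per library with MACS2 2.1.0. The deposited lists give each summit a fold enrichment (a ratio to local background), a −log10 p and a −log10 q, computed by the authors. The smallest −log10 p was about 2.00 in every list. Read depth is unknown, so no counting intervals are given.

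Summits of 1 interval were counted as 1 peak with its strongest summit. Regions were merged across the 16 lists and assigned to genes by GENCODE on mm10. Percentiles by −log10 p were fitted with limma 3.58.1 (R 4.3.3, trend) on genotype and deposit set over regions present in 16 libraries, and region numbers over coding genes with a mean of at least 2. P-values were adjusted by Benjamini-Hochberg over the whole table. The procedure was tested on simulated data. Exact permutation tests were two-sided over 70 regroupings that ignore the deposit set. Other steps used Python 3.11.15 with pysam 0.24.0, pandas 2.3.3, matplotlib 3.10.9, numpy 2.4.6 and scipy 1.17.1.

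Members and lists were chosen with earlier results of these data known. Regions named were each member's strongest start region, its 2 strongest distal regions and any region called. Others were named after their values were seen. In percentile, same-numbered libraries deviated together from their genotype means (r from 0.135 to 0.565). Once the deposit set was removed, r was -0.125 to 0.0419. For region numbers these ranges were 0.379 to 0.713 and -0.191 to 0.0723. With 2 libraries of a genotype in each set, the later values cannot show whether same-numbered libraries were also paired. Reference sequence was checked against 658 RefSeq promoters, of which 658 were identical. Alternatives included other rankings, thresholds, each set alone and leaving out each library. A marker gene of the lists is not reported here.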

Additional observations from a re-analysis of the deposited data

Results flagged for a closer look

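In 132 groups of 4 libraries (named regions and region numbers of the 10 members), 14 (10.61%) held 1 library far from the other 3 by Dixon's criterion. For percentiles, 8 of 92 groups did. The criterion's chance rate of about 1 of 20 is for independent values of a single normal distribution. Each group mixes the 2 deposit sets, and groups share libraries, so the rate is only a rough guide. For region numbers, 6 of 40 groups did, and in each of these 3 libraries were tied, so that any departure of the other library meets the criterion and this chance rate does not apply. WT replicate 1, the library with the fewest peaks at a −log10 q of at least 2, gave 6 of the 14. Its percentile was 73.2 at the Nfkb1 promoter where the other WT libraries were at 89.6 to 92.4, 78.3 at the Nfkb1 intron (others 81.7 to 82.3), 90.1 at the region beyond Rela (95.0 to 95.8) and 84.6 at the Bcl3 promoter (93.7 to 94.8). At the region 26.0 kb downstream of the Nfkbie start it was at 54.9 (83.7 to 84.7), and it had 8 regions around Bcl3 where the others had 10.

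Among other libraries, P300KO_TET2KO replicate 1 was at 98.1 at the Relb promoter (others 99.4 to 99.6) and had 9 regions around Nfkb2 (others 10). TET2KO replicate 4 was at 92.3 at the Nfkbia promoter (others 91.5 to 91.6) and had 11 regions around Bcl3 (others 10). WT replicate 2 was at 98.5 at the Tnfaip3 promoter (others 96.3 to 96.7). P300KO replicate 1 had 9 regions around Bcl3 (others 10), P300KO replicate 2 had 5 around Nfkbia (others 6), and TET2KO replicate 3 had 7 around Nfkbia (others 6). Of the 6 flags on region numbers, 5 were a difference of 1 region.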

How the results depend on the processing

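Members called by region number stayed at 0 under all alternatives. Member regions called for the mean p300 effect were 1, and they became 0 without the deposit set term, in the first set alone, by fold enrichment and at a −log10 q of at least 2, 4 in the second set alone, 3 with ranks taken among common regions, and 1 to 2 when 1 library was left out, with 2 (Nfkb2 +25.8 kb added) without WT replicate 2. For P300KO against WT they rose from 0 to 2 in the second set alone (Nfkbia +3.7 kb, Nfkbie +8.2 kb) and to 2 with ranks among common regions (Nfkbie +8.2 kb, Rela +23.6 kb). The Bcl3 +32.6 kb difference was -2.07 without the set term (limma adjusted p = 0.651), -2.81 in the first set (0.739), -1.33 in the second (0.0240), -5.44 with ranks among common regions, a scale of fewer regions (0.00774), -2.99 by fold enrichment (0.108), -1.57 at a −log10 q of at least 2 (0.530) and -2.24 to -1.91 without 1 library (0.0136 to 0.0464). With the replicate block it was -2.07 (adjusted p = 0.0360), and the replicate block changed no member's call.

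Over all regions the replicate block called 22, 1, 0, 31, 148, 82 and 0 and the fit with no set term 5, 0, 0, 13, 0, 11 and 0, where the reported fit called 27, 4, 0, 41, 260, 97 and 0 (in order: p300 loss without Tet2, p300 loss with Tet2, Tet2 loss with p300, Tet2 loss without p300, mean p300 effect, mean Tet2 effect, interaction). For the mean p300 effect, the all-region count was 1191 (442 higher) with ranks among common regions, 490 with normal scores, 127 by fold enrichment, 6 at a −log10 q of at least 2, 0 in the first set, 2584 (926 higher) in the second, and 91 to 564 (133 higher) without 1 library. All-or-none member regions numbered 0 in the first 4 of these contrasts. The looser rule gave 3, 3, 6 and 3. With all or none kept and a library left out, there were 0 to 1: 1 without TET2KO replicate 2 or 4 (P300KO_TET2KO against TET2KO, and TET2KO against WT), WT replicate 4 (P300KO against WT), P300KO_TET2KO replicate 1 or P300KO replicate 1 or 2 (P300KO_TET2KO against P300KO).

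Uncalled differences in P300KO_TET2KO against TET2KO changed sign under some settings. For promoters, in the first set alone they were 1.63 (Nfkb1), 0.221 (Nfkbia), 0.0118 (Nfkbiz) and 0.344 (Bcl3). In the second set Rel was at -0.257. By fold enrichment all 10 were negative, from -7.73 to -2.84, with Nfkb2 at -6.11 and Rel at -6.57 turned. At a −log10 q of at least 2, Nfkb1 was at 0.725, Rela 0.234, Nfkbia 0.160, Nfkbiz 0.110, Bcl3 0.328 and Nfkbie 0.188. Without 1 library the ranges were -1.35 to 1.10 (Nfkb1), -0.545 to 0.0498 (Rela), -0.375 to 0.114 (Relb), -0.291 to 0.125 (Nfkbiz) and -1.08 to 0.201 (Bcl3). For region numbers, Nfkb1 turned to 0.5 (second set), 1.75 (−log10 q), 1 (strongest 50000), 2 (50% covered) and -1.86 to 0.227 (without 1 library), Rel to 1 (first set) and 0.25 (strongest 50000), Relb to 0.25 (−log10 q), Nfkbia to -0.25 (−log10 q, and strongest 50000) and Nfkbiz to -0.5 (second set). The cause was not tested. Fewer libraries in a set alone, and 42 member regions at the −log10 q limit, leave less to test. Depth is unknown, so a missing peak cannot be read as closed chromatin.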
